A study of Mus musculus with 8 samples.

Results

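The genes described here are named as subunits of the oxidative phosphorylation machinery, in stem cells sorted from white fat of mice. They were taken by symbol: every row named Nduf followed by a, b, c, s or v and a digit, Sdha to Sdhd, Uqcr, Cox4 to Cox8 (without Cox8b) or Atp5. This gave 83 genes of 17967 symbols in the count table, 39 in complex I, 4 in complex II, 8 in complex III, 15 in complex IV and 17 in complex V. Complexes were assigned by name, so that Ndufa4 and Ndufa4l2 are counted in complex I. Ndufa11b fits the name pattern but is annotated by RefSeq as a transcribed pseudogene and is not known here to encode a subunit. Of the 83, 81 passed the filter on low counts, against 13694 genes tested in all. Cox4i2, with 2 to 11 counts a library, and Cox6a2, with a single count in 1 of 6 libraries, did not pass it.

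The series holds 8 bulk RNA-seq samples of adipose-derived stem cells from 4 depots. The cells were freed with type II collagenase, red cells were lysed and the stem cells were sorted by flow cytometry; the sources used here do not name the surface antigens. The depots compared were subcutaneous inguinal (SWAT), epididymal (EWAT) and perirenal (NWAT) white adipose tissue, with 2 libraries each. All came from male C57BL/6J wild type mice on a chow diet, and no depot received a treatment. The mesenteric depot is not analysed here, because no column of the tables could be matched to its labels. Nothing in the labels says that the 2 libraries of a depot came from different animals, and each p-value sets a difference against no more than the spread of these libraries, which may be technical.

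Complexes I and II take electrons from NADH and succinate and pass them to ubiquinone, complex III passes them on to cytochrome c, and complex IV uses them to reduce oxygen to water. Complexes I, III and IV pump protons across the inner mitochondrial membrane, and complex V, the ATP synthase, uses their return to make ATP. All complexes but complex II combine nuclear-encoded subunits, which are described here, with subunits encoded by mitochondrial DNA, whose genes are not analysed here. White adipose progenitors are known to change their mitochondrial content when they differentiate into adipocytes.

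Library totals were close, from 20026377 to 20638684 counts, and trimmed-mean scaling factors were 0.893 and 0.919 in SWAT, 1.05 and 1.08 in EWAT and 1.04 and 1.03 in NWAT. Progenitor markers were abundant in every library. Pdgfra, the receptor commonly used to mark them, had 1233 and 1174 CPM (counts scaled to a common library total) in SWAT, 1165 and 936 in EWAT and 1420 and 1443 in NWAT. The summed level of 9 progenitor markers lay between 15063 and 21206 CPM over the 6 libraries. Dcn made up the largest part, with 8190 and 8593 CPM in SWAT, 14963 and 15321 in EWAT and 8754 and 9646 in NWAT. At an edgeR adjusted p under 0.05, 4 of the 9 were higher and 2 lower in SWAT than in EWAT (18.0% and 18.7% of all genes). Between EWAT and NWAT 2 were higher and 4 lower in EWAT (13.3% and 14.0% of all genes). EWAT replicate 2 stood apart for the subunit genes: it was the highest of the 6 libraries for 76 of the 81 tested subunit genes, EWAT replicate 1 for 0 of them, and NWAT replicate 1 was the lowest for 59. The counts of subunit genes that rest on EWAT are therefore given with and without each EWAT library.

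The subunit genes were well expressed in all 3 depots. Per transcript length (FPKM), the median tested subunit gene reached 33.8 over the 6 libraries, against 6.64 for all genes tested. The most abundant subunit transcript by this measure was Atp5b, the catalytic beta subunit of ATP synthase, with 149 and 150 FPKM in SWAT, 160 and 188 in EWAT and 146 and 157 in NWAT. In complex IV the highest level was that of Cox6a1, which encodes the widely expressed form of a small regulatory subunit, with 118 and 117 FPKM in SWAT, 127 and 156 in EWAT and 115 and 119 in NWAT. Complex III was led by the hinge protein gene Uqcrh, with 61.6 and 65.0 FPKM in SWAT, 87.5 and 118 in EWAT and 58.9 and 72.7 in NWAT. In each of these 3 genes EWAT replicate 2 was the highest library. On FPKM the median of all genes was itself lower in SWAT than in EWAT, so these values rank genes and do not compare depots. After trimmed-mean scaling Atp5b had 312 and 304 CPM in SWAT and 284 and 325 in EWAT. Cox6a1 had 66.4 and 64.0 CPM in SWAT and 60.8 and 72.6 in EWAT. EWAT replicate 1 thus lay below both SWAT libraries for Atp5b and Cox6a1, and above both for Uqcrh (43.0, against 35.6 and 36.5 CPM).

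Levels within a complex were uneven. Mean FPKM over the 6 libraries ran from 1.1 for Ndufa11b to 87.8 for Ndufa4 in complex I, from 25.6 for Sdhd to 43.5 for Sdhc in complex II, from 14.9 for Uqcrq to 77.3 for Uqcrh in complex III, from 1.16 for Cox6b2 to 125 for Cox6a1 among the tested genes of complex IV, and from 3.25 for Atp5s to 158 for Atp5b in complex V. Ndufa11b, the pseudogene, and Ndufb4c are close copies of Ndufa11 and Ndufb4, and the deposited counts of all 4 were not whole numbers in any library, so reads shared between copies may have been divided and their separate values are uncertain. In all, 10 subunit genes had counts that were not whole in every library, and 66 had whole counts throughout.

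Summed over the 83 genes, subunit transcripts took 0.250% and 0.247% of the counts in SWAT, 0.318% and 0.412% in EWAT and 0.262% and 0.286% in NWAT. The EWAT libraries lay above the other 4 for this sum, and the gap between EWAT replicate 2 and replicate 1 was larger than the gap between EWAT replicate 1 and the highest NWAT library. The EWAT libraries lay above the other 4 in each complex as well. Complex I took 0.0683% and 0.0664% of counts in SWAT, 0.0910% and 0.121% in EWAT and 0.0712% and 0.0777% in NWAT. Complex V, the largest share, took 0.101% and 0.0995% in SWAT, 0.120% and 0.152% in EWAT and 0.102% and 0.112% in NWAT. These shares are per library total; after trimmed-mean scaling the sum over all 83 genes was 2803 and 2688 CPM in SWAT, 3023 and 3813 in EWAT and 2521 and 2776 in NWAT. On that scale EWAT replicate 1 exceeded the nearest library, SWAT replicate 1, by less than the EWAT libraries differed between themselves. In bulk RNA, a difference in the number of cells of a type and a difference in RNA per cell cannot be told apart.

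**Figure D1:**
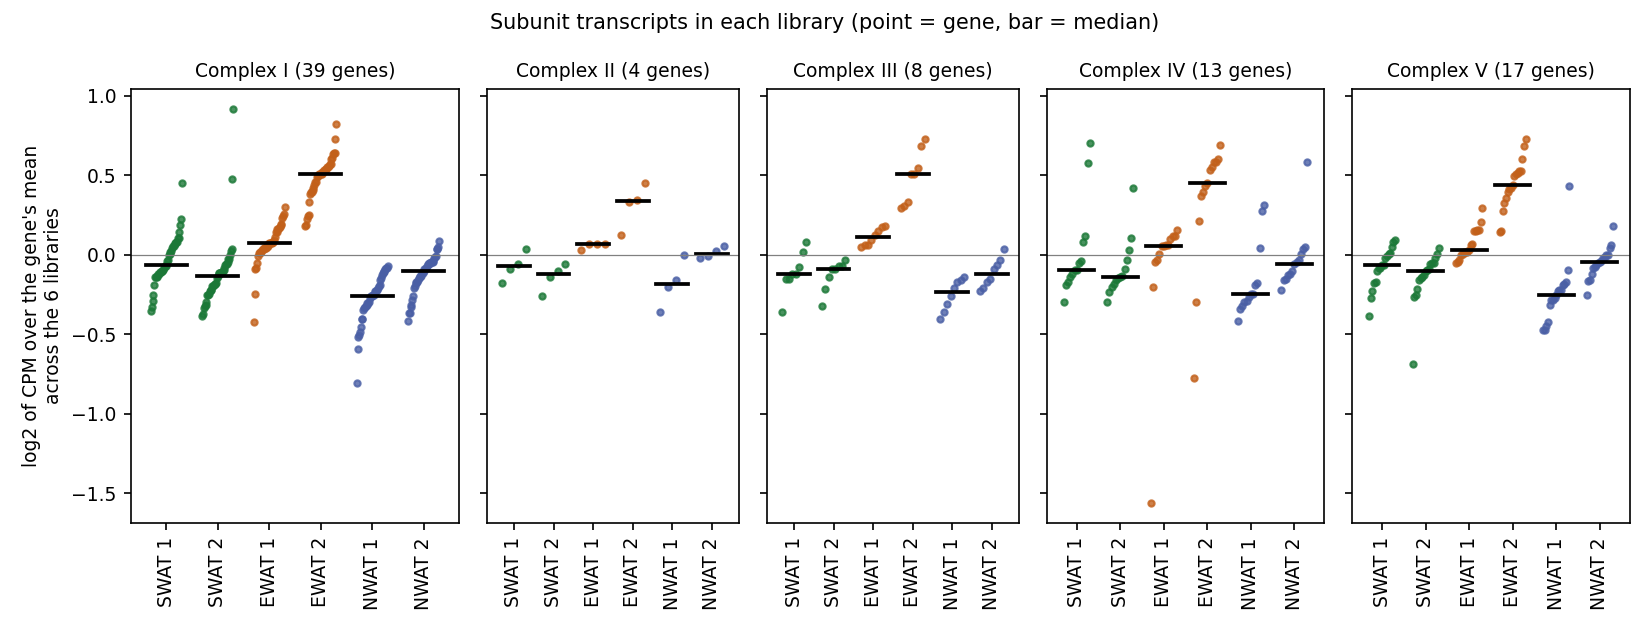
Level of each tested subunit gene in each library (y axis, log2 of CPM over the gene's mean across the 6 libraries), by complex; points are genes, black bars are medians, and colours mark the depots. The EWAT replicate 2 column is the highest in every panel, and 76 of 81 genes have their highest value there.

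Inguinal against epididymal stem cells gave the first comparison. Of the 81 subunit genes, 36 were lower in SWAT than in EWAT and 0 were higher at an adjusted p under 0.05 (edgeR's quasi-likelihood test, Benjamini-Hochberg adjustment over all genes tested). Among all 13694 genes 18.7% were lower and 18.0% higher. The median log2 fold change, SWAT minus EWAT, was -0.39 over the subunit genes, a 1.31-fold higher level in EWAT, against -0.0090 over all genes tested. Without scaling beyond the library total, 70 subunit genes were lower, but there 37.1% of all genes were lower too and the median of all genes moved to -0.25. Both EWAT libraries lay above both SWAT libraries for 58 of the 81 subunit genes, which holds for 36.1% of all genes tested.

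By complex, 19 of 39 genes of complex I, 0 of 4 of complex II, 5 of 8 of complex III, 7 of 13 tested genes of complex IV and 5 of 17 of complex V were lower in SWAT than in EWAT. Median log2 fold changes were -0.40, -0.30, -0.39, -0.48 and -0.35 in that order of complexes. The 5 subunit genes whose fold change had the other sign, Ndufa4l2, Ndufa11b, Cox6b2, Cox7a1 and Atp5b, did not pass the test.

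The lowest log2 fold change was that of Uqcrb, which encodes a small ubiquinone-binding subunit of complex III. Uqcrb had 25.9 and 26.5 CPM in SWAT, 37.5 and 54.9 in EWAT and 27.7 and 34.0 in NWAT. The SWAT and EWAT libraries did not overlap, with EWAT replicate 2 the highest. Uqcrb was 1.76-fold higher in EWAT (log2 fold change, SWAT minus EWAT, -0.82 ± 0.17 SE, edgeR adjusted p = 0.00453).

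Ndufa4, named for complex I but since assigned to complex IV, had 30.7 and 33.1 CPM in SWAT, 42.6 and 63.8 in EWAT and 31.3 and 38.1 in NWAT. It was 1.67-fold higher in EWAT than in SWAT (log2 fold change -0.74 ± 0.18, edgeR adjusted p = 0.0103). Cox7a2l encodes a factor that joins complexes III and IV into supercomplexes, and C57BL/6 mice are known to carry a shortened form of its protein. It had 62.5 and 65.5 CPM in SWAT, 80.1 and 101 in EWAT and 79.1 and 79.0 in NWAT. The SWAT libraries were the lowest for Cox7a2l, with a log2 fold change of -0.50 ± 0.12 (edgeR adjusted p = 0.00657).

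Cox7a2l was not among the 6 genes with the lowest fold changes that passed. A further 3 genes were, beside Uqcrb and Ndufa4. Atp5k, which encodes subunit e of the ATP synthase membrane part, had 6.25 and 7.59 CPM in SWAT and 5.87 and 8.05 in NWAT. In EWAT it had a mean of 11.6 CPM, with 13.1 in replicate 2, and both libraries lay above those of SWAT and NWAT. Atp5k was lower in SWAT than in EWAT (log2 fold change -0.74 ± 0.20, edgeR adjusted p = 0.0121). Ndufb4, an accessory subunit of the complex I membrane arm, had 12.2 and 10.1 CPM in SWAT, 13.7 and 23.1 in EWAT and 9.88 and 13.0 in NWAT (-0.73 ± 0.25, adjusted p = 0.047). For Ndufb4 most of the gap rested on EWAT replicate 2. Atp5s, coupling factor B of older nomenclature, had 4.22 and 3.16 CPM in SWAT, 5.65 and 6.38 in EWAT and 6.87 and 5.24 in NWAT (-0.71 ± 0.22, adjusted p = 0.0255). Both other depots exceeded SWAT for Atp5s.

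Of a fixed list of core genes, not all of them catalytic, some passed the test and others did not, and differences between them were not tested. All of them but Atp5b had a negative log2 fold change, SWAT minus EWAT. Atp5b and Atp5a1, the beta and alpha subunits that form the catalytic head of ATP synthase, had log2 fold changes of 0.017 and -0.10, SWAT minus EWAT, with adjusted p of 0.919 and 0.504. Sdha, the flavoprotein of complex II, had 113 and 109 CPM in SWAT, 126 and 131 in EWAT and 120 and 122 in NWAT, and it did not pass (-0.21 ± 0.10, adjusted p = 0.112). Ndufs3 and Ndufv2, both in the peripheral arm of complex I that carries electrons to ubiquinone, were lower in SWAT, at -0.40 ± 0.11 (adjusted p = 0.015) and -0.49 ± 0.16 (adjusted p = 0.031). Ndufv1, which oxidises NADH, had -0.11 ± 0.11 (adjusted p = 0.461), and Ndufs1, Ndufs7 and Ndufs8 did not pass either. Uqcrfs1, the Rieske iron-sulphur protein, was lower in SWAT at -0.34 ± 0.12 (adjusted p = 0.0378), while the core proteins Uqcrc1 and Uqcrc2, at -0.17 and -0.27, did not pass. In complex IV Cox5b was lower in SWAT, at -0.50 ± 0.14 (adjusted p = 0.0172), and Cox5a, at -0.21 ± 0.13, did not pass. A gene that did not pass is not shown to be equal between depots.

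Among the widely expressed isoform genes of complex IV, Cox4i1, Cox7a2 and Cox8a were lower in SWAT than in EWAT, and Cox6a1 and Cox6b1 did not pass. Cox4i1, the ubiquitous form of the largest nuclear-encoded subunit, had 76.4 and 70.9 CPM in SWAT, 81.9 and 106 in EWAT and 68.8 and 71.8 in NWAT (SWAT minus EWAT -0.35 ± 0.12, edgeR adjusted p = 0.0452). With each library's trend along transcript length removed, the log2 fold change of Cox4i1 was 0.0054. Cox8a, a small membrane subunit, had 48.9 and 49.2 CPM in SWAT, 57.6 and 79.1 in EWAT and 44.9 and 49.6 in NWAT (-0.48 ± 0.14, adjusted p = 0.0194). For both genes the SWAT and NWAT libraries overlapped, and both EWAT libraries lay above them. Cox7a2, the widely expressed partner of Cox7a1, was at -0.54 ± 0.16 (adjusted p = 0.0207). Cox6b1 was at -0.48 ± 0.19 and did not pass (adjusted p = 0.0696).

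The 4 complex II genes, which encode succinate dehydrogenase, had log2 fold changes from -0.38 for Sdhb to -0.21 for Sdha, SWAT minus EWAT, and none passed the test. Sdhb, the iron-sulphur subunit, had 33.9 and 27.6 CPM in SWAT, 34.7 and 45.2 in EWAT and 25.8 and 34.3 in NWAT. EWAT replicate 1 lay just above the highest SWAT and NWAT libraries and EWAT replicate 2 well above them, and Sdhb did not pass (-0.38 ± 0.17, edgeR adjusted p = 0.109). Sdhd, a membrane anchor, had 28.2 and 30.7 CPM in SWAT, 33.5 and 40.1 in EWAT and 28.6 and 31.7 in NWAT, without overlap between SWAT and EWAT, and did not pass (-0.32 ± 0.12, adjusted p = 0.0545). The implied transcript lengths of the complex II genes ran from 1.05 kb for Sdhb to 2.86 kb for Sdha.

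**Figure D2:**
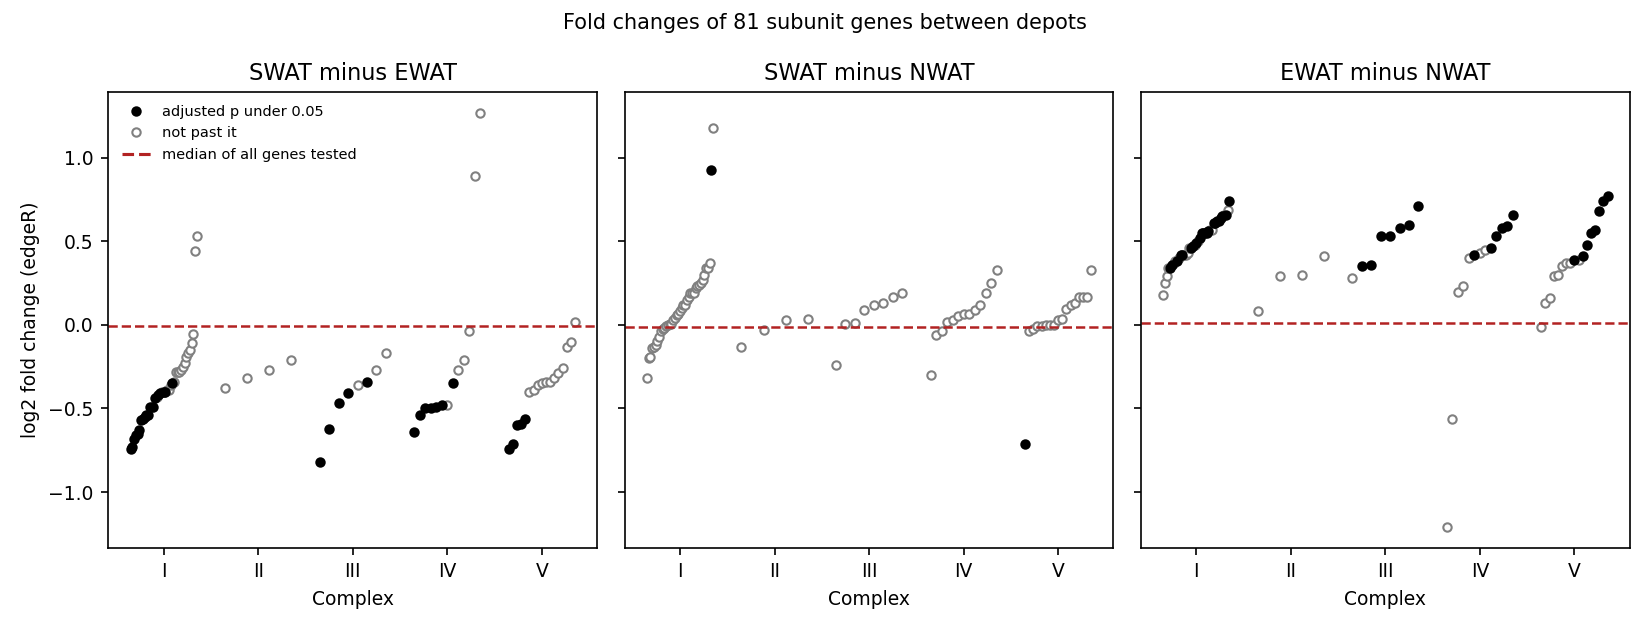
Log2 fold change (y axis, edgeR) of the 81 tested subunit genes for SWAT minus EWAT, SWAT minus NWAT and EWAT minus NWAT, by complex; filled points have an adjusted p under 0.05, open points do not, and the dashed line is the median of all genes tested. Filled points lie below the line for SWAT minus EWAT (36 genes) and above it for EWAT minus NWAT (43 genes), and 2 points are filled for SWAT minus NWAT.

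The epididymal against perirenal comparison uses the same EWAT libraries and is therefore not independent of the first. Of the 81 subunit genes, 43 were higher in EWAT than in NWAT and 0 were lower, against 13.3% higher and 14.0% lower among all genes tested. The median log2 fold change, EWAT minus NWAT, was 0.45, or 1.37-fold, against 0.011 over all genes. Both EWAT libraries lay above both NWAT libraries for 71 of the 81 genes, which holds for 33.3% of all genes tested. Higher genes numbered 22 of 39 in complex I, 0 of 4 in complex II, 7 of 8 in complex III, 6 of 13 in complex IV and 8 of 17 in complex V.

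Atp5l, which encodes subunit g of ATP synthase, led this comparison. It had 48.1 and 71.8 CPM in EWAT and 31.8 and 38.6 in NWAT (log2 fold change, EWAT minus NWAT, 0.77 ± 0.19, edgeR adjusted p = 0.0143), and 43.0 and 36.1 CPM in SWAT. Ndufb7, an accessory subunit of the complex I membrane arm, had 19.5 and 25.4 CPM in EWAT and 13.6 and 13.1 in NWAT. The NWAT libraries of Ndufb7 agreed closely and both EWAT libraries lay above them (0.74 ± 0.14, adjusted p = 0.00203).

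The other genes named by the rule for this pair were Atp5k at 0.74 ± 0.19 (adjusted p = 0.0159), Uqcr11, a small subunit of complex III, at 0.71 ± 0.16 (adjusted p = 0.00779), Atp5e, the epsilon subunit of ATP synthase, at 0.68 ± 0.14 (adjusted p = 0.00411), and Cox6c, a small subunit of complex IV, at 0.66 ± 0.18 (adjusted p = 0.0255). Uqcr11 had 16.2 and 22.9 CPM in EWAT and 11.1 and 12.7 in NWAT. Atp5e had 23.8 and 30.6 CPM in EWAT and 16.0 and 18.0 in NWAT. For each of the 4 genes both EWAT libraries lay above both NWAT libraries. More of the core genes passed here: Ndufs3, Ndufs8, Ndufv1, Ndufv2, Uqcrfs1, Uqcrc1, Cox5a and Cox5b were higher in EWAT, and Ndufs1, Ndufs7, Uqcrc2, Atp5a1, Atp5b and the 4 complex II genes did not pass.

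Inguinal against perirenal stem cells differed at 2 subunit genes, 1 higher and 1 lower in SWAT, against 9.07% higher and 9.83% lower among all genes tested. The median log2 fold change of the subunit genes, SWAT minus NWAT, was 0.059; it was -0.13 with library totals as the only scaling, where the median of all genes was -0.21. Ndufa4l2, a paralogue of Ndufa4 known as a target of hypoxia-inducible factor, had 6.91 and 7.01 CPM in SWAT, 4.25 and 5.98 in EWAT and 3.53 and 3.78 in NWAT. It was higher in SWAT than in NWAT (0.93 ± 0.21, edgeR adjusted p = 0.00825), without overlap of the libraries. The call was lost without SWAT replicate 2 (adjusted p = 0.0518) or NWAT replicate 1 (adjusted p = 0.0655), at log2 fold changes of 0.92 and 0.88. Atp5s was lower in SWAT than in NWAT (-0.71 ± 0.22, adjusted p = 0.0405), and that call was lost when either SWAT library or NWAT replicate 1 was left out, with adjusted p of 0.0512, 0.270 and 0.287. Ndufa4l2 overlaps Shmt2, which had 28.9 and 27.2 CPM in SWAT, 18.9 and 22.3 in EWAT and 23.4 and 25.4 in NWAT.

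In a joint test of the 3 depots 45 of the 81 subunit genes passed, against 41.7% of all genes tested. They were 23 of complex I, 0 of complex II, 6 of complex III, 8 of complex IV and 8 of complex V.

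The counts depended on single libraries. Without EWAT replicate 1, 64 of 82 tested subunit genes were lower in SWAT than in EWAT (background 20.6%) and 71 of 82 were higher in EWAT than in NWAT (background 17.1%). Without EWAT replicate 2, 8 of 81 were lower in SWAT than in EWAT (background 13.2%) and 6 of 81 were higher in EWAT than in NWAT (background 8.34%), so that the share of subunit genes called was below that of all genes. Of the calls of the main analysis, 28 and 37 were lost in these comparisons, and Ndufa4l2 was gained as higher in SWAT than in EWAT. The median log2 fold change was then -0.16 for SWAT minus EWAT and 0.22 for EWAT minus NWAT. Among the 8 genes were Atp5h, Cox7a2l, Ndufa4, Ndufb7 and Uqcrb, and the 6 were Atp5e, Atp5l, Ndufa7, Ndufb7, Ndufb8 and Ndufv3. Leaving out SWAT replicate 1 or replicate 2 gave 10 and 7 genes lower in SWAT than in EWAT (backgrounds 11.5% and 10.6%). Leaving out NWAT replicate 1 or replicate 2 gave 3 and 27 genes higher in EWAT than in NWAT (backgrounds 6.94% and 7.86%). With a single library left in a depot, that library is assumed to vary like those of the other depots.

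The libraries of 1 depot differed in the same way. The median log2 difference of the subunit genes, replicate 2 minus replicate 1, was -0.072 in SWAT, 0.40 in EWAT and 0.16 in NWAT, against -0.0099, 0.0044 and 0.0070 over all genes tested. In EWAT 80 of 81 subunit genes were higher in replicate 2, by a median of 1.32-fold, which is as large as the median difference between EWAT and SWAT. In NWAT 70 of 81 were higher in replicate 2.

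**Figure D3:**
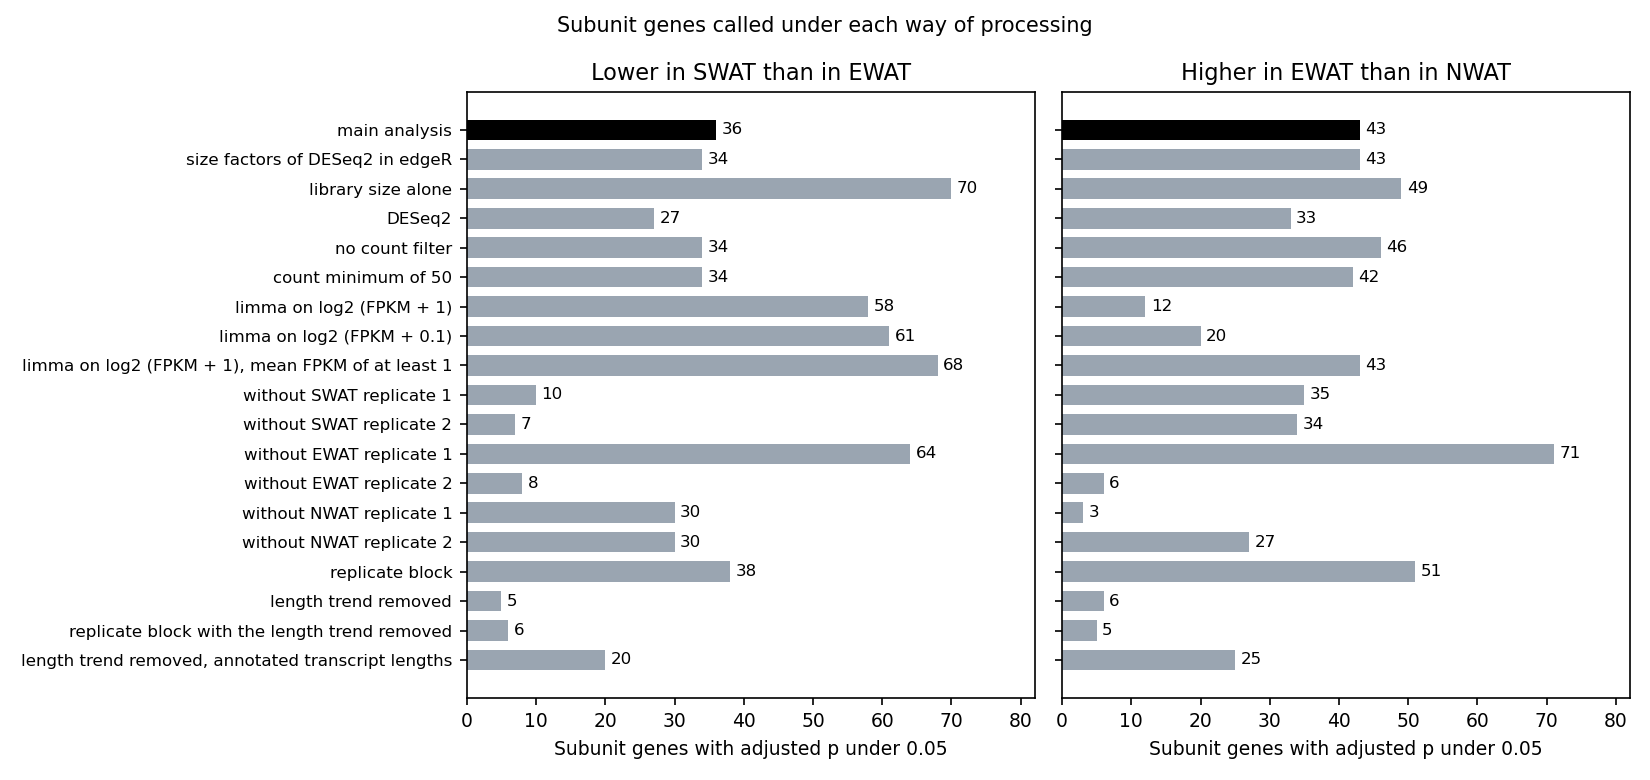
Number of subunit genes with an adjusted p under 0.05 (x axis) that were lower in SWAT than in EWAT (left) and higher in EWAT than in NWAT (right), for the main analysis (black) and each alternative (grey). The left counts run from 5 to 70 and the right counts from 3 to 71.

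Subunit transcripts are short. The transcript length implied by the ratio of counts to FPKM had a median of 0.688 kb over the tested subunit genes (range 0.259 to 2.86 kb) and 2.92 kb over all genes tested, and 59 subunit genes, or 72.8%, were under 1 kb, against 6.58% of all genes. Other short transcripts differed in the same direction. Under 0.5 kb the median log2 fold change for SWAT minus EWAT was -0.42 in 22 subunit genes and -0.47 in 106 other genes. From 0.5 to 1 kb it was -0.40 in 37 subunit genes and -0.33 in 736 other genes, and from 1 to 2 kb it was -0.32 in 18 subunit genes and -0.17 in 2985 other genes. For EWAT minus NWAT the medians in these 3 classes were 0.57, 0.48 and 0.34 in subunit genes and 0.43, 0.35 and 0.19 in other genes. Genes of 4 kb and over, none of them a subunit gene, had the opposite sign, at 0.16 for SWAT minus EWAT and -0.20 for EWAT minus NWAT.

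The 2 EWAT libraries differed along the same axis. The median log2 difference, EWAT replicate 2 minus replicate 1, was 0.51 in subunit genes and 0.45 in other genes under 0.5 kb, 0.40 and 0.31 from 0.5 to 1 kb, and 0.29 and 0.17 from 1 to 2 kb, and it was -0.19 in other genes of 4 kb and over. Length and replicate therefore moved with the depot difference; their part in it was not tested.

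With the trend of each library along transcript length removed, 5 subunit genes were lower in SWAT than in EWAT and 3 were higher (backgrounds 18.5% and 20.0%), and the median log2 fold change was -0.054. In EWAT against NWAT 6 were higher and 1 was lower (backgrounds 13.1% and 12.1%), with a median of 0.16. In SWAT against NWAT 2 were higher and 3 were lower (backgrounds 13.8% and 11.6%). Among the 5 lower in SWAT than in EWAT were Atp5s, Cox7a2l, Ndufa4 and Uqcrb, and the 3 higher were Cox6a1, Cox6b2 and Ndufa4l2. Cox6a1 changed sign, with a log2 fold change of 0.39 in place of -0.034. This fit also removes any depot difference that short transcripts share. With annotated transcript lengths in place of the implied ones, an alternative chosen after seeing the data, 20 were lower in SWAT than in EWAT (background 17.5%) and 25 were higher in EWAT than in NWAT (background 13.1%).

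**Figure D4:**
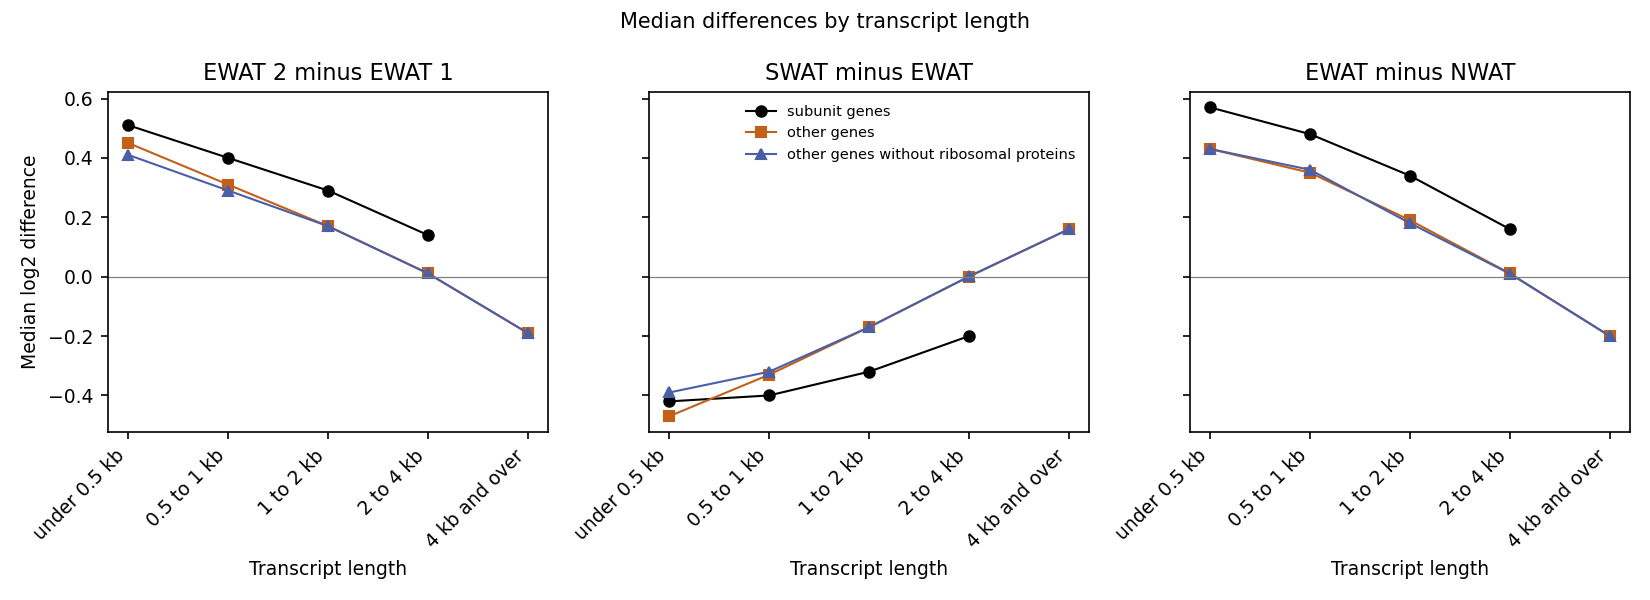
Median log2 difference (y axis) by class of implied transcript length (x axis) for subunit genes, other genes, and other genes without cytosolic and mitochondrial ribosomal proteins, for EWAT replicate 2 minus replicate 1, SWAT minus EWAT and EWAT minus NWAT. Subunit genes and other short genes lie on the same side of 0, and genes of 4 kb and over lie on the other; the class of 2 to 4 kb holds 4 subunit genes.

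A small set of calls held in the main analysis, without either EWAT library in turn and with the length trend removed. Those lower in SWAT than in EWAT included Uqcrb, Ndufa4 and Cox7a2l. Over 19 analyses, the main one included, Uqcrb passed in 19, with log2 fold changes between -1.07 and -0.37. Ndufa4 and Cox7a2l passed in 18 and missed it without SWAT replicate 1, at adjusted p of 0.0660 and 0.0605.

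Higher in EWAT than in NWAT were Ndufb7, Ndufv3, Atp5l and Ndufb8. Ndufv3, an accessory subunit beside the NADH-oxidising site of complex I, had 34.7 and 43.6 CPM in EWAT and 24.7 and 25.0 in NWAT (0.66 ± 0.13, edgeR adjusted p = 0.00307). Ndufb8, an accessory subunit of the membrane arm, had 30.6 and 40.4 CPM in EWAT and 22.7 and 24.0 in NWAT (0.61 ± 0.13, adjusted p = 0.00594). Ndufb7 and Ndufv3 passed in 19 of 19 analyses and Atp5l and Ndufb8 in 17. Without NWAT replicate 1 the adjusted p was 0.104 for Atp5l and 0.0574 for Ndufb8. In SWAT against NWAT, Ndufa4l2 (higher) and Atp5s (lower) also passed in these 4 analyses. The EWAT libraries enter that comparison only through the shared estimate of the spread, so leaving them out says little about it. Both calls were lost when single SWAT or NWAT libraries were left out, as given above.

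The promoters of 4 subunit genes are shown to give the sequence from which the differing transcripts start. Ndufb7 was called in every analysis of EWAT against NWAT and Atp5l in most, and Ndufa4 in most analyses of SWAT against EWAT. Atp5k was among the largest differences in both comparisons with EWAT. Its calls did not hold without EWAT replicate 2 or with the length trend removed. Each run is the 250 bases upstream of the annotated start in RefSeq's GRCm38.p6 annotation, 5′ to 3′ on the gene's strand. Capitals mark exact matches, on either strand, to GCGCATGCG, the core of the nuclear respiratory factor 1 (NRF1) site, or to CCGGAAG, an ETS-family site of the kind bound by GABP. Both factors are known to act at promoters of many respiratory chain genes.
Ndufb7 (chr8:83566508-83566757, plus strand): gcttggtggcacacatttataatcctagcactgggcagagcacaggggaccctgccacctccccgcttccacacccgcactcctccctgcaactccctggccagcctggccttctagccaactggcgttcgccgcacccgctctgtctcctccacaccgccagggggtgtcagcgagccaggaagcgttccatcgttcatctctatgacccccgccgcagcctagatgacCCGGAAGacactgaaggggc
Atp5l (chr9:44920743-44920992, minus strand): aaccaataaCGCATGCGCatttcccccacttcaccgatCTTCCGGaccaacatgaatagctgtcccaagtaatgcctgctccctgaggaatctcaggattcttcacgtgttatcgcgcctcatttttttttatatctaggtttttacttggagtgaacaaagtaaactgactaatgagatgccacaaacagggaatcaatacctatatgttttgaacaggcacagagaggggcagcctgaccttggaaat
Atp5k (chr5:108434400-108434649, minus strand): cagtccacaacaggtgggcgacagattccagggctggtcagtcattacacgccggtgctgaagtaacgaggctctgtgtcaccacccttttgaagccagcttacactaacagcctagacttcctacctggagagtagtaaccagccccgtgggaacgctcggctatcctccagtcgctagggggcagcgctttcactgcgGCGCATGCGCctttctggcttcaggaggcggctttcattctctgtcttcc
Ndufa4 (chr6:11907451-11907700, minus strand): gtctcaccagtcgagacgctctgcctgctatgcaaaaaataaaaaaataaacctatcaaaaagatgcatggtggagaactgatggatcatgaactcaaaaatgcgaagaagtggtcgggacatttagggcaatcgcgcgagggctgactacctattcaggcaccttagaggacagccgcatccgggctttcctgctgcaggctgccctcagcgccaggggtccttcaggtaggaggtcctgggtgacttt

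The ETS match of Ndufb7 begins 20 bases upstream of the start, and the NRF1 match of Atp5k, a palindrome that matches on both strands, begins 50 bases upstream. The matches of Atp5l lie farther away, beginning 241 bases upstream for NRF1 and 212 for ETS. The Ndufa4 window holds neither. The windows of Cox7a2l, Ndufv3 and Ndufb8, whose calls held and which are not shown, hold neither as well. Uqcrb, whose call also held, had no promoter entry. A promoter entry was found for 64 of the 83 genes. Some genes have several windows, and a gene is counted if any of its windows matches. NRF1 letters were found for 6 of the 64 genes, or 9.38%, against 3.25% of 10659 tested genes with an entry. ETS letters were found for 12 genes, or 18.8%, against 14.9%. The letters AAGATGGCG of YY1 and TCAAGGTCA of the estrogen-related receptors were searched in the same way. They were found for 1 gene each, or 1.56%, against 1.29% and 0.347% of tested genes. Any of these letters were found for 17 genes, or 26.6%, against 18.7% of tested genes. A match is a description of the letters and not a measured site.

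Genes that encode alternative forms of a subunit were compared within pairs, per transcript length. Ndufa4l2 made up 9.99% and 9.43% of the summed FPKM of Ndufa4l2 and Ndufa4 in SWAT, 4.67% and 4.41% in EWAT and 5.27% and 4.66% in NWAT. Both SWAT libraries lay above the other 4. The heart and muscle form Cox7a1 made up 10% and 6.65% of the Cox7a1 and Cox7a2 pair in SWAT, 4.55% and 2.27% in EWAT and 8.61% and 5.31% in NWAT, and the SWAT and NWAT libraries overlapped. These shares rest on 7 to 16 counts of Cox7a1 a library. Cox7a1 itself did not pass for SWAT against EWAT, SWAT against NWAT or EWAT against NWAT (edgeR adjusted p = 0.192, 0.695 and 0.455).

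Cox6b2, whose product is best known from testis, made up 2.05% and 1.98% of its pair with Cox6b1 in SWAT, 0.441% and 0.703% in EWAT and 1.94% and 1.84% in NWAT. Cox6b2 itself had 0.823 and 0.738 CPM in SWAT, 0.187 and 0.449 in EWAT and 0.668 and 0.825 in NWAT. Its log2 fold changes of 1.27 ± 0.53 for SWAT minus EWAT and -1.21 ± 0.52 for EWAT minus NWAT did not pass (adjusted p = 0.0799 and 0.11), and with the length trend removed they were 1.70 and -1.61 and passed (adjusted p = 0.0175 and 0.0310). Cox4i2, the form known to be induced by low oxygen, stayed at 0.136% to 0.449% of its pair with Cox4i1 in the 6 libraries. Cox6a2, a muscle form, was listed at 0 in 5 libraries and had 1 count in EWAT replicate 1.

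Atp5g1, Atp5g2 and Atp5g3 encode the same mature c subunit of the ATP synthase rotor. Atp5g3 supplied 42.3% and 43.6% of their summed FPKM in SWAT, 43.0% and 40.1% in EWAT and 41.2% and 43.0% in NWAT. Atp5g2 supplied 34.0% and 34.2% in SWAT, 33.9% and 36.3% in EWAT and 35.0% and 32.7% in NWAT. The depots overlapped for both shares.

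**Figure D5:**
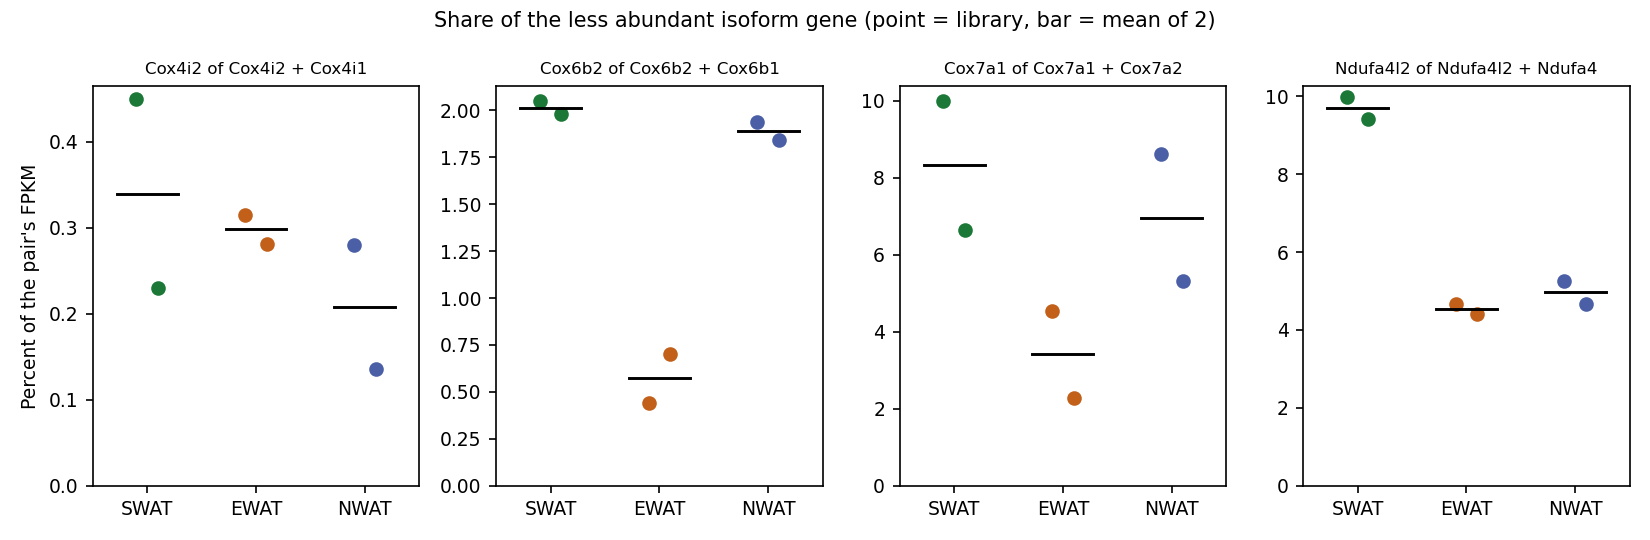
Share of the less abundant isoform gene in the summed FPKM of its pair (y axis, percent), by depot; points are libraries and bars are means of 2. Each panel has its own scale from 0. Ndufa4l2 lies at 9.43% to 9.99% in SWAT and at 4.41% to 5.27% in the other depots, and Cox6b2 lies at 0.441% to 0.703% in EWAT.

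Genes around the respiratory chain were read from lists. Of 5 electron carriers and subunits outside the name pattern, 4 were lower in SWAT than in EWAT (Ndufab1, Cycs, Usmg5 and Atpif1, with log2 fold changes from -0.77 to -0.43; median of the list -0.66), and 3 were higher in EWAT than in NWAT. Without EWAT replicate 2 these counts were 1 and 0. The lists are read against the shares of all genes given above, 18.7% lower in SWAT than in EWAT and 13.3% higher in EWAT than in NWAT, or 13.2% and 8.34% without EWAT replicate 2. Assembly factors of complex I, which build the enzyme but are not part of it, had 5 of 17 lower in SWAT than in EWAT and 1 of 17 higher in EWAT than in NWAT. For assembly factors of complexes II and III these counts were 2 and 1 of 10. For those of complexes IV and V they were 3 and 3 of 26, and only this last list was below the share of all genes in both directions. Without EWAT replicate 2 none of the 3 assembly lists had a gene past the test in either of these directions.

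Pyruvate dehydrogenase and the tricarboxylic acid cycle, which supply the chain with NADH and succinate, had 5 of 18 genes lower and 1 higher in SWAT than in EWAT, and 3 higher in EWAT than in NWAT. Without EWAT replicate 2 these counts were 2 lower, 2 higher and 1 higher. Mitochondrial ribosomal proteins had 13 of 78 lower in SWAT than in EWAT, median -0.32, which is below the share of all genes, and 13 higher in EWAT than in NWAT. Without EWAT replicate 2 these counts were 3 and 1, and the median for SWAT minus EWAT was -0.13. Cytosolic ribosomal proteins, also short transcripts but outside the mitochondrion, had 40 of 77 lower in SWAT than in EWAT, median -0.43, and 8 higher in EWAT than in NWAT. Without EWAT replicate 2 these counts were 7 and 0, with a median of -0.17 for SWAT minus EWAT, and with the length trend removed 3 were lower in SWAT than in EWAT and the median was -0.073. The median of the subunit genes, -0.39, lay between these medians for SWAT minus EWAT. For EWAT minus NWAT it was 0.45, against 0.31 for the mitochondrial and 0.30 for the cytosolic ribosomal proteins; these gaps were not tested.

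Regulators of mitochondrial biogenesis did not move in 1 direction. Of 16 tested, 1 was higher and 1 lower in SWAT than in EWAT, and the median log2 fold change was 0.053. Pprc1, a coactivator related to PGC-1 alpha, had 64.0 and 70.8 CPM in SWAT, 48.5 and 36.6 in EWAT and 60.5 and 62.4 in NWAT, and was higher in SWAT than in EWAT (0.67 ± 0.13, edgeR adjusted p = 0.00219). Myc was lower in SWAT than in EWAT (-0.61 ± 0.12, adjusted p = 0.00234). Nrf1, Gabpa and Tfam did not pass between SWAT and EWAT, at 0.085, 0.12 and -0.40.

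Between EWAT and NWAT 1 of the 16 regulators was higher and 1 lower. Ppargc1a, which encodes PGC-1 alpha, a coactivator of mitochondrial biogenesis, had 0.877 and 2.06 CPM in SWAT, 2.90 and 2.47 in EWAT and 1.19 and 0.873 in NWAT. It was higher in EWAT than in NWAT (1.37 ± 0.38, edgeR adjusted p = 0.0204). That call was lost without EWAT replicate 1, NWAT replicate 1 or NWAT replicate 2, at adjusted p of 0.0551, 0.0586 and 0.131. For SWAT minus EWAT Ppargc1a did not pass (-0.86 ± 0.37, adjusted p = 0.0883), and with the length trend removed it did (-1.10, adjusted p = 0.0211). Pprc1 was lower in EWAT than in NWAT (-0.53 ± 0.13, adjusted p = 0.0108), and that call was lost without NWAT replicate 1 or NWAT replicate 2, at adjusted p of 0.0539 and 0.0693.

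Among 7 tested carriers, porins and uncouplers, 4 were lower in SWAT than in EWAT and 4 were higher in EWAT than in NWAT. The ADP/ATP carrier gene Slc25a4 had 118 and 120 CPM in SWAT, 149 and 179 in EWAT and 136 and 141 in NWAT (SWAT minus EWAT -0.46 ± 0.11, edgeR adjusted p = 0.00809). Ucp2, an inner-membrane carrier related to the uncoupling protein, had 3.18 and 4.27 CPM in SWAT, 22.7 and 32.8 in EWAT and 5.82 and 4.46 in NWAT. Its log2 fold changes were -2.89 ± 0.22 for SWAT minus EWAT and 2.43 ± 0.21 for EWAT minus NWAT, and its EWAT libraries lay far above the other 4. Ucp1 did not pass the filter, at 0 in both SWAT libraries, 0.0467 and 0.0449 CPM in EWAT and 0.286 and 0.340 CPM in NWAT.

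Some markers of other cells also differed between EWAT and the other depots. Of 8 macrophage and monocyte markers 6 were lower in SWAT than in EWAT and 6 were higher in EWAT than in NWAT, and their summed level was 12.0 and 21.6 CPM in SWAT, 37.3 and 35.6 in EWAT and 20.5 and 19.3 in NWAT, with none at 0 in all libraries. The EWAT libraries were close to each other for this sum. Of 5 mesothelial markers tested, 4 were lower in SWAT than in EWAT, and these 4 summed to 0.329 and 1.00 CPM in SWAT, 7.33 and 7.19 in EWAT and 5.11 and 4.22 in NWAT. Krt19, the remaining one, a keratin, had 3.18 and 3.11 CPM in SWAT, 0.607 and 0.809 in EWAT and 6.39 and 6.21 in NWAT, and was higher in SWAT than in EWAT (2.14 ± 0.27, edgeR adjusted p = 9.41e-05). With Krt19 and the untested Krt8 the list summed to 3.51 and 4.22 CPM in SWAT, 8.31 and 8.36 in EWAT and 11.9 and 10.6 in NWAT.

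Of 6 pericyte and smooth muscle markers 3 were lower and 3 higher in SWAT than in EWAT, and 3 were higher and 1 lower in EWAT than in NWAT. Their summed level was 48.4 and 69.9 CPM in SWAT, 55.9 and 54.9 in EWAT and 26.9 and 23.2 in NWAT. Myh11, the smooth muscle myosin heavy chain, had 3.67 and 5.22 CPM in SWAT, 27.1 and 23.8 in EWAT and 1.91 and 1.02 in NWAT, so that both EWAT libraries lay above the other 4. Endothelial markers, 1 of 6 higher in SWAT than in EWAT and 2 higher in EWAT than in NWAT, summed to 21.4 and 20.6 CPM in SWAT, 14.7 and 22.1 in EWAT and 12.4 and 12.9 in NWAT. This sum was higher in EWAT replicate 2 than in EWAT replicate 1. Of 4 mature adipocyte markers tested, 1 was lower in SWAT than in EWAT and 0 passed between EWAT and NWAT. The whole list summed to 1.54 and 1.90 CPM in SWAT, 3.18 and 8.76 in EWAT and 5.01 and 6.21 in NWAT. The sum of the mature adipocyte markers was also higher in EWAT replicate 2 than in EWAT replicate 1. The part of these cell markers in the subunit results was not tested. Erythroid markers summed to 4.99 and 14.6 CPM in SWAT, 6.16 and 9.62 in EWAT and 6.44 and 159 in NWAT, so that NWAT replicate 2 stood apart.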

How the data were processed

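RNA-seq was measured in 8 samples of sorted adipose-derived stem cells from 4 depots, and 6 libraries of 3 depots were used. Per gene symbol, the authors deposited estimated counts, of which 31.7% to 33.1% per library are not whole numbers, and FPKM. The sources used here name no aligner, counting tool or strand setting; the submitters' processing notes name the build GRCm38.p6, Cell Ranger and Seurat without their roles. Of the columns of values in each table, 2 matched no label and were not used.

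Estimated counts were rounded, filtered (filterByExpr, count minimum 10, total minimum 15), scaled by trimmed means (TMM) and tested with edgeR 4.0.16 (R 4.3.3; quasi-likelihood, robust, 3 residual degrees of freedom, common biological coefficient of variation 0.0979) in 1 fit of all 6 libraries, with Benjamini-Hochberg adjustment over 13694 genes at 0.05. Values are TMM-scaled CPM, computed here, within a gene, and deposited FPKM between genes. Alternatives used DESeq2 1.42.0, limma 3.58.1 on log2 (FPKM + 1), other filters and scalings, each library left out, the replicate number as a block, and offsets that remove each library's trend with transcript length. The test was checked on simulated data.

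Named genes were up to 6 called genes with the highest and lowest fold change per pair (mean log2 CPM at least 2), isoform pairs, a fixed list of core genes and the highest FPKM per complex. Calls lost or gained without an EWAT library are given as counts. The genes still called without EWAT replicate 2, Ndufv3 and Ndufb8 among them, and the genes named from the lists around the respiratory chain, were singled out after their values were seen. The members and lists were chosen with earlier results of these data known. The values of 1 subunit gene are not reported here, though it is counted in the totals.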

Additional observations from a re-analysis of the deposited data

How the results depend on the processing

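Counts of subunit genes past the threshold moved with the scaling, the libraries and transcript length. With library totals alone 69 passed the joint test, 70 were lower in SWAT than in EWAT and 4 were lower in SWAT than in NWAT. There 37.1% of all genes were lower in SWAT than in EWAT and 23.4% lower in SWAT than in NWAT. For the joint test the share of all genes is given above for the main analysis only. Of all calls between SWAT and EWAT 49.1% were higher in SWAT in the main analysis, 20.9% with library totals alone and 18.3% to 20.6% on FPKM. With limma on log2 (FPKM + 1), log2 (FPKM + 0.1) and log2 (FPKM + 1) at a mean FPKM of at least 1, 58, 61 and 68 were lower in SWAT than in EWAT, 3, 4 and 4 lower in SWAT than in NWAT; 12 and 20 were higher in EWAT than in NWAT with the first pair, and at the FPKM minimum 1 was higher in SWAT than in EWAT and 1 lower in EWAT than in NWAT. In these 3 fits 25.5%, 26.2% and 40.7% of all genes were lower in SWAT than in EWAT and 12.6%, 13.3% and 24.0% lower in SWAT than in NWAT, and with the first pair 8.87% and 9.13% were higher in EWAT than in NWAT. At the FPKM minimum 9.09% of all genes were higher in SWAT than in EWAT and 11.9% lower in EWAT than in NWAT. With DESeq2 0 were lower in SWAT than in NWAT (7.88% of all genes), and 27 were lower in SWAT than in EWAT (14.8% of all genes). Leaving out 1 library at a time gave 9 to 71 in the joint test. Between SWAT and EWAT it gave 0 to 1 higher in SWAT and 7 to 64 lower. Between SWAT and NWAT it gave 0 to 2 higher in SWAT and 0 to 3 lower. Between EWAT and NWAT it gave 3 to 71 higher in EWAT and 0 lower.

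With the length trend removed 12 passed the joint test; 3 were higher and 5 lower in SWAT than in EWAT, 2 higher and 3 lower in SWAT than in NWAT, and 6 higher and 1 lower in EWAT than in NWAT. With the replicate block and the length trend removed together the counts were 13, then 3 and 6, 3 and 3, and 5 and 1 in the same order. The pairwise shares of all genes were then 20.1% and 18.6%, 13.9% and 11.9%, and 13.2% and 12.3%. With annotated transcript lengths, chosen after seeing the data, the counts were 29, then 2 and 20, 1 and 3, and 25 and 0. Here the pairwise shares of all genes were 19.2% and 17.5%, 11.8% and 10.1%, and 13.1% and 13.2%. Cox4i1 and Cox6a1 changed sign for SWAT minus EWAT, at 0.0054 and 0.39 with the length trend removed and 0.0047 and 0.39 with the block as well. The cause of these shifts was not tested. Of 2208 values for named genes over the alternatives, 1837 stayed on their side of the threshold, 1666 of them with the same sign and 171 with the other sign while past the threshold in neither fit. A further 235 were no longer past it, 132 passed it newly and 4 changed sign while past it in 1 of the fits.

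The labels give the same replicate numbers in each depot and do not say whether libraries of the same number share animals or a batch. Over 13694 genes, the correlation of replicate 2 minus replicate 1 was 0.00055 between SWAT and EWAT. It was 0.038 between SWAT and NWAT and 0.11 between EWAT and NWAT. A low correlation cannot show that libraries of the same number are unrelated. With the replicate block 50 passed the joint test, 38 were lower in SWAT than in EWAT and 51 were higher in EWAT than in NWAT. Among all genes 18.7% were then lower in SWAT than in EWAT and 13.6% higher in EWAT than in NWAT. Depth limits the low genes: Cox4i2 and Cox6a2 could not be tested.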
